A study of Mus musculus with 12 samples.

Results

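The 10 p53 target genes Cdkn1a, Mdm2, Ccng1, Zmat3, Trp53inp1, Bbc3, Perp, Sesn2, Phlda3 and Bax were followed across 12 RNA-seq libraries of mouse embryonic stem cells. They were taken from a list of gene names, with no cut on measured values, and each was matched by its symbol in the authors' table of comparisons to 1 Ensembl gene among the 52661 of the raw count table. All 10 passed the low-count filter that kept 21053 genes for testing. The CGR8 line of these cells was grown in serum with LIF, a cytokine that maintains pluripotency, and all 4 groups carried the ppy-cagg-ires-puro vector by stable transfection. The vector was empty in the control group. In the other groups it encoded netrin-1, a secreted guidance protein, either as the wild-type form (netrin-1 WT) or as a point mutant of the interaction with a receptor (unc5B MUT or neo1 MUT). Each group had 3 libraries, numbered 1 to 3 in the titles. The labels name no clone or pool and do not say whether the libraries came from separate cultures, so the p-values reflect only how far these libraries spread, and that spread can be technical.

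p53, encoded by Trp53, is a transcription factor that is stabilised by DNA damage and other stress. It binds DNA as a tetramer at paired half-sites and switches on genes for cell-cycle arrest, repair, metabolism and apoptosis. Among its targets, Mdm2 encodes the ubiquitin ligase that degrades p53, which makes a negative feedback loop. Embryonic stem cells are known for abundant p53 protein, a short G1 phase and a readiness to die or differentiate after damage.

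Total estimated counts ran from 22256195 to 59735737 per library, and the 4 libraries numbered 3 were the 4 shallowest. Levels are given as CPM, estimated counts scaled to a common normalized library size. The number 3 libraries stood apart: between them and numbers 1 and 2, 62.8% of the genes tested passed an adjusted p of 0.05 in edgeR. Their raw table also differed in its smallest steps, with a most common value above 0 of 0.498 to 0.531 estimated counts, against 1.09 to 1.18 in numbers 1 and 2. Summed over 8 pluripotent stem cell markers, which include Pou5f1, Sox2 and Nanog, the level was 3178 to 4278 CPM, and none of the 8 was at 0. Single markers varied more between groups than the sum. Means in control and netrin-1 WT were 322.1 and 557.4 CPM for Sox2, 178.2 and 287.2 for Nanog, and 516.7 and 363.1 for the marker Tdgf1. Groups were compared by edgeR's quasi-likelihood test, first with the group alone and then with the replicate number as a block. Same-numbered libraries deviated together from their group means, so the blocked value is given wherever it changed a call. Fold changes, standard errors and 95% intervals below are from the blocked fit.

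The promoters show how the half-site is spread over the members. RefSeq promoter windows of 300 bases (GRCm38.p6) were at hand for 7 of the 10 genes; Zmat3, Trp53inp1 and Perp had no entry. The p53 half-site consensus, which reads alike on both strands, was found in 4 of the 10 windows of these 7 genes, 1 window in each of 4 genes, and in 2745 of all 32851 windows (8.36%). Each stretch below is printed 5′ to 3′ along the gene's strand, with the half-sites in capitals. Cdkn1a is shown because it held 2 half-sites within 13 bases of each other, a pair found in 24 of 32851 windows (0.0731%), and the other 3 because they held 1.
Cdkn1a (chr17:29090891-29090952, plus strand): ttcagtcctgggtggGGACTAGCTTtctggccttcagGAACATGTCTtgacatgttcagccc
Mdm2 (chr10:117710920-117710959, minus strand): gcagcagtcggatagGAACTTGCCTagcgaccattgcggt
Ccng1 (chr11:40755447-40755486, minus strand): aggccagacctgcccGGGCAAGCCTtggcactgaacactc
Bax (chr7:45467075-45467114, minus strand): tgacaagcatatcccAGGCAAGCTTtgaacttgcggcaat
The first capital base lies 73 bases upstream of the RefSeq start in Cdkn1a, 186 in Mdm2, 185 in Ccng1 and 201 in Bax. A match of letters is a description of the sequence only, and p53 binding was not measured here.

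All 10 genes were expressed in every library. To compare genes with each other, CPM was divided by the length of the gene's merged exons. On that scale Bax was highest, with a mean of 380.2 CPM per kb over the 12 libraries, but this mean joins 111.5 CPM per kb in numbers 1 and 2 with 917.6 in number 3. Ccng1, a cyclin that brings phosphatase PP2A to Mdm2, came next at 68.8 CPM per kb. Its lowest library, at 50.3, lay above the highest library of each of the 8 genes below it. Phlda3 (31.6), Mdm2 (31.2), Trp53inp1 (27.0), Cdkn1a (24.4), Sesn2 (23.9) and Bbc3 (18.2) followed, and neighbours among these 6 overlapped in their library ranges. Zmat3 had 10.7 CPM per kb and Perp 4.90. The range of Zmat3, 6.64 to 19.2, overlapped with that of Perp, 2.36 to 7.68.

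**Figure D1:**
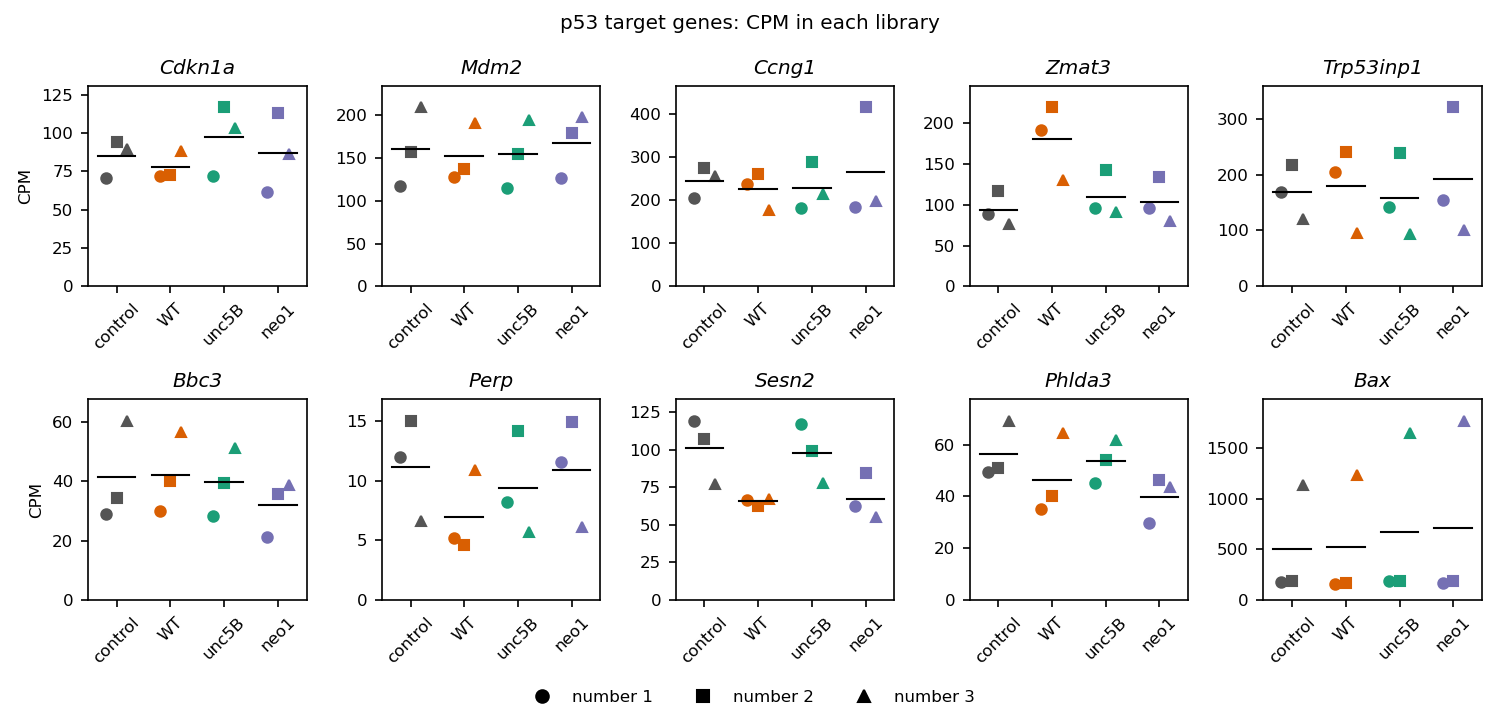
Level of each p53 target gene in CPM (vertical axis, from 0) in the 12 libraries, by group (horizontal axis); circles, squares and triangles are numbers 1, 2 and 3, and the bar is the group mean. Zmat3 is higher in all 3 netrin-1 WT libraries (130.9 to 219.5 CPM) than in the control libraries (75.9 to 117.3 CPM), and the 4 triangles of Bax lie at 1136 CPM or higher in every group.

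Few members differed between groups. Without the block, 0 of the 10 passed in netrin-1 WT against control, where 0.0997% of all genes tested passed. The count was likewise 0 in unc5B MUT against control (0% of all genes), neo1 MUT against control (0.128%), unc5B MUT against netrin-1 WT (0%), neo1 MUT against netrin-1 WT (0.076%) and neo1 MUT against unc5B MUT (0.133%). At an unadjusted p under 0.05 the counts of members were 2, 0, 1, 2, 1 and 1 in that order, beside 5.79%, 1.13%, 7.26%, 5.03%, 4.82% and 6.85% of all genes, and DESeq2 and limma-voom without the block also called 0 members in each. With the block, 1 of 10 passed in netrin-1 WT against control (3.5% of all genes), 0 in unc5B MUT against control (0.0285%) and 0 in neo1 MUT against control (5.26%). It was 1 of 10 in unc5B MUT against netrin-1 WT (1.97%), 1 of 10 in neo1 MUT against netrin-1 WT (1.99%) and 0 in neo1 MUT against unc5B MUT (4.87%). The gene was Zmat3 each time. At an unadjusted p under 0.05 the blocked fit had 2, 0, 3, 2, 2 and 3 of the 10 members, beside 18.1%, 4.7%, 20.2%, 17.6%, 14.3% and 21.1% of all genes.

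The median absolute log2 fold change of the 10 members was 0.12 in netrin-1 WT against control, 0.15 in unc5B MUT against control and 0.10 in neo1 MUT against control. Over all genes tested it was 0.28, 0.17 and 0.29. In unc5B MUT against netrin-1 WT the members had 0.26 and all genes 0.28. In neo1 MUT they were 0.18 and 0.24 against netrin-1 WT and 0.20 and 0.29 against unc5B MUT. The medians over all genes were not matched for expression level. By mean CPM Perp lay at the 54.3 percentile of the genes tested and the other members between 74.5 (Bbc3) and 99.1 (Bax). Of the 60 intervals (10 members in 6 comparisons), 53 lay wholly within a 2-fold change either way and 37 within 1.5-fold. The intervals that reached 2-fold were those of Zmat3 in 2 comparisons and of Perp in 5. The comparisons share libraries, so their values are not independent of each other.

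**Figure D2:**
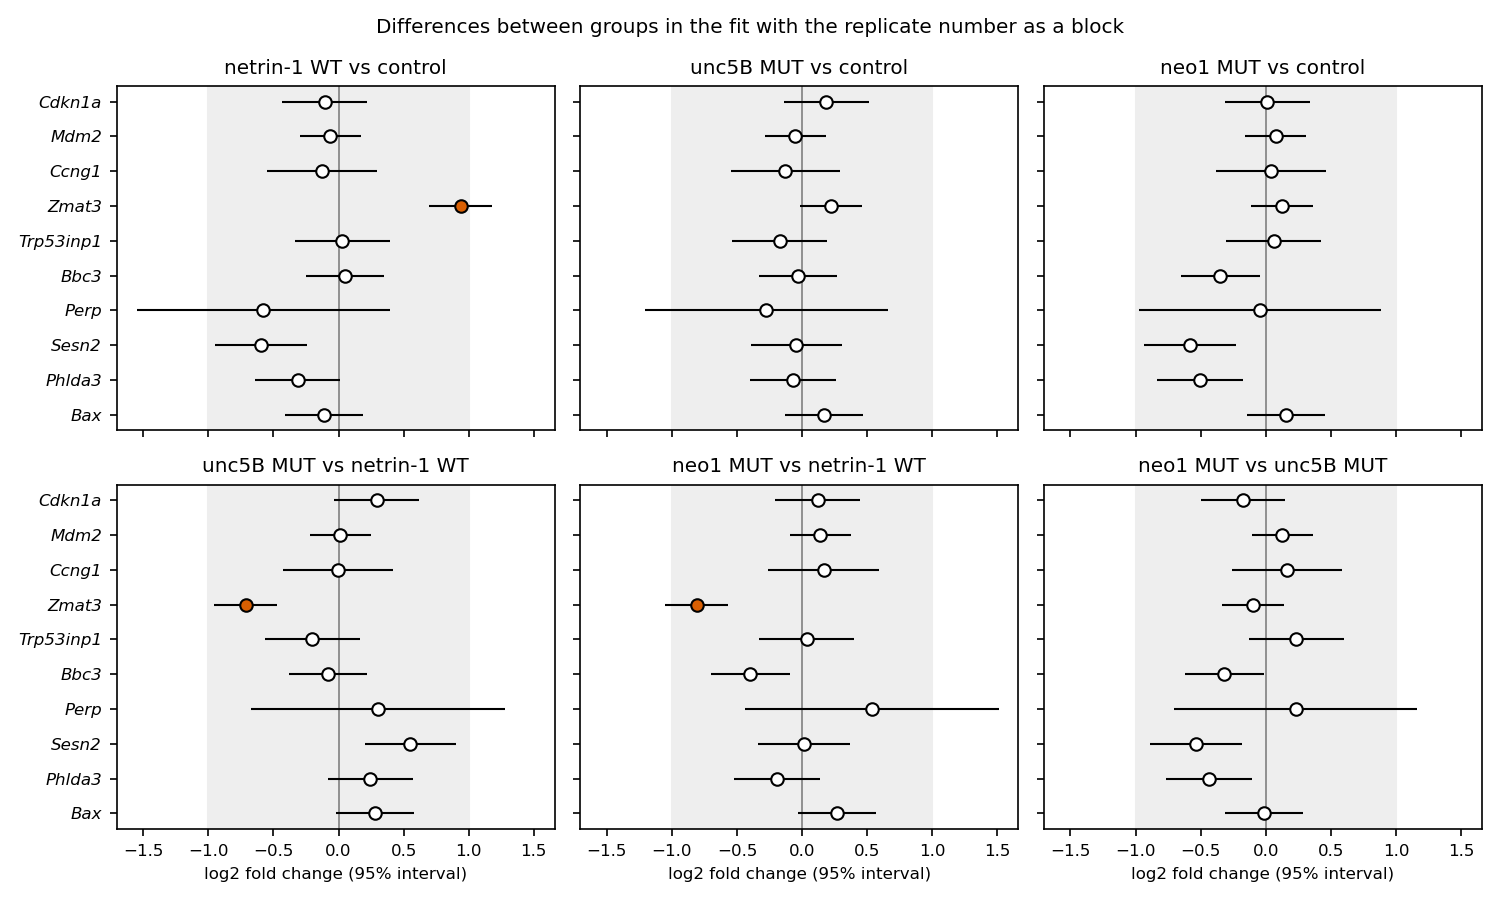
Log2 fold change with its 95% interval (horizontal axis) for each p53 target gene (vertical axis) in the 6 comparisons, from edgeR with the replicate block; filled points passed an adjusted p of 0.05, and the grey band spans a 2-fold change either way. Zmat3 is the filled point in 3 comparisons, at 0.94, -0.71 and -0.81, and Perp has the widest intervals.

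The arrest and feedback genes, Cdkn1a, Mdm2, Ccng1 and Trp53inp1, did not pass in any comparison between groups. Cdkn1a (ENSMUSG00000023067, chr17:29090976-29100727, plus strand) encodes p21, the inhibitor of cyclin-dependent kinases through which p53 stops the cell cycle. Its level was 70.7, 94.2 and 89.6 CPM in control libraries 1, 2 and 3 and 72.3, 72.4 and 88.4 in netrin-1 WT. The unc5B MUT libraries had 72.3, 116.8 and 103.3 and those of neo1 MUT 61.3, 113.0 and 86.3. The 4 groups overlapped. The log2 fold change against control was -0.11 (95% interval -0.43 to 0.22) in netrin-1 WT, 0.18 (-0.14 to 0.51) in unc5B MUT and 0.01 (-0.32 to 0.34) in neo1 MUT. A change of p21 mRNA beyond 1.5-fold therefore lies outside the blocked intervals of all 3 comparisons. The fit without the block was less precise, with a standard error of 0.26 in each of them, against 0.15 with it.

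Mdm2 (ENSMUSG00000020184, chr10:117688875-117710758, minus strand) was measured with the narrowest intervals of the members. It had 116.9, 156.7 and 209.1 CPM in control and 127.3, 136.7 and 191.5 in netrin-1 WT. Levels in unc5B MUT were 114.6, 154.4 and 194.7, and in neo1 MUT 126.5, 179.1 and 197.6. Number 3 was the highest library in every group, and the groups overlapped. The log2 fold change against control was -0.06 (-0.30 to 0.17) in netrin-1 WT, -0.05 (-0.28 to 0.18) in unc5B MUT and 0.08 (-0.16 to 0.31) in neo1 MUT.

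Ccng1 (ENSMUSG00000020326, chr11:40748552-40755311, minus strand) had 206.3, 274.3 and 255.9 CPM in control and 238.2, 261.2 and 176.7 in netrin-1 WT. The 3 libraries of unc5B MUT had 183.0, 288.0 and 214.5, and neo1 MUT 184.5, 415.8 and 198.9. Library 2 of neo1 MUT was the highest of the 12. Trp53inp1 (ENSMUSG00000028211, chr4:11156431-11174379, plus strand), which encodes a stress protein that promotes p53 phosphorylation, was also highest in that library. Its level was 168.2, 217.7 and 120.8 CPM in control and 203.9, 240.0 and 95.5 in netrin-1 WT. The unc5B MUT libraries had 142.7, 237.9 and 92.9 and those of neo1 MUT 154.1, 319.9 and 101.4. Neither gene passed in any of the 6 comparisons. Log2 fold changes against control were between -0.13 and 0.04 for Ccng1 and between -0.17 and 0.06 for Trp53inp1. The 95% intervals of Ccng1 were -0.55 to 0.30 in netrin-1 WT, -0.55 to 0.29 in unc5B MUT and -0.38 to 0.46 in neo1 MUT. Those of Trp53inp1 were -0.34 to 0.39, -0.54 to 0.19 and -0.30 to 0.43 in that order.

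Zmat3 was the member that rose with wild-type netrin-1. Zmat3 (ENSMUSG00000027663, chr3:32334792-32366014, minus strand) encodes a zinc-finger RNA-binding protein that acts on splicing and mRNA stability downstream of p53. It had 88.9, 117.3 and 75.9 CPM in control and 192.0, 219.5 and 130.9 in netrin-1 WT, against 96.0, 142.8 and 91.6 with unc5B MUT, while neo1 MUT had 96.1, 134.6 and 79.7. The 3 netrin-1 WT libraries lay above all 3 control libraries, while both mutants overlapped with control. With the block the log2 fold change in netrin-1 WT against control was 0.94 ± 0.11 (SE, n = 3 against 3; edgeR adjusted p = 0.0013), or 1.92-fold with an interval of 1.62 to 2.26. Without the block the edgeR adjusted p was 0.458. The rise was present within each number, at 1.11, 0.90 and 0.78 on the log2 scale.

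Zmat3 was lower in both mutants than in netrin-1 WT, with a log2 fold change of -0.71 ± 0.11 in unc5B MUT (edgeR adjusted p = 0.0112 with the block, 0.939 without) and of -0.81 ± 0.11 in neo1 MUT (0.00431 with, 0.813 without). Against control the mutants' log2 fold changes were 0.22 (-0.01 to 0.46) and 0.13 (-0.11 to 0.37), and neither passed. Leaving out any 1 of the 6 libraries compared kept the blocked call in netrin-1 WT against control (edgeR adjusted p 0.0015 to 0.0139) and in neo1 MUT against netrin-1 WT (0.00524 to 0.0353). In unc5B MUT against netrin-1 WT the call was kept in 2 of the 6 cases, without netrin-1 WT library 3 or without unc5B MUT library 3, and was lost without any other library, with adjusted p-values of up to 0.12.

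The genes next to Zmat3 on chromosome 3 moved with it. Of 10 neighbours listed, 9 were tested (Kcnmb3 was too low). In the blocked fit 7 of the 9 rose in netrin-1 WT against control, beside 367 of all 21053 genes tested. The median log2 fold change was 0.82 over the 9 and 0.0066 over all genes. Pik3ca, the catalytic subunit of phosphoinositide 3-kinase, had 36.0, 52.0 and 27.1 CPM in control and 85.0, 87.7 and 66.5 in netrin-1 WT. Its log2 fold change was 1.07 ± 0.17, beside 1.22 ± 0.13 for Gnb4, a G-protein subunit, 1.0 ± 0.16 for Zfp639, a zinc-finger protein, and 0.85 ± 0.12 for Mfn1, a mitochondrial fusion protein (edgeR adjusted p with the block 0.00653, 0.00105, 0.00856 and 0.00492). None of these 4 passed without the block (0.268, 0.159, 0.678 and 1).

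Of the 9 neighbours, 0 passed in unc5B MUT against control (0.0285% of all genes) and 0 in neo1 MUT against control (5.26%). Against netrin-1 WT, 4 fell in unc5B MUT and 7 in neo1 MUT, beside 203 and 336 of all 21053 genes. Zmat3 was called in the latter 2 comparisons and not in the former 2. In neo1 MUT against unc5B MUT, where Zmat3 had a log2 fold change of -0.10 (-0.33 to 0.14), 2 neighbours fell, Mfn1 and Usp13. Of all genes, 691 fell in that comparison. A wider stretch of chromosome 3 was taken between 5 and 55 Mb, with bounds set by hand. There 86 of the 235 genes tested rose in netrin-1 WT against control, beside 367 of all 21053. The median was 0.81 inside and 0.0021 outside. Zmat3 lay at the 57.9 percentile of the log2 fold changes inside that stretch. The part of its position in the change of Zmat3 was not tested.

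**Figure D3:**
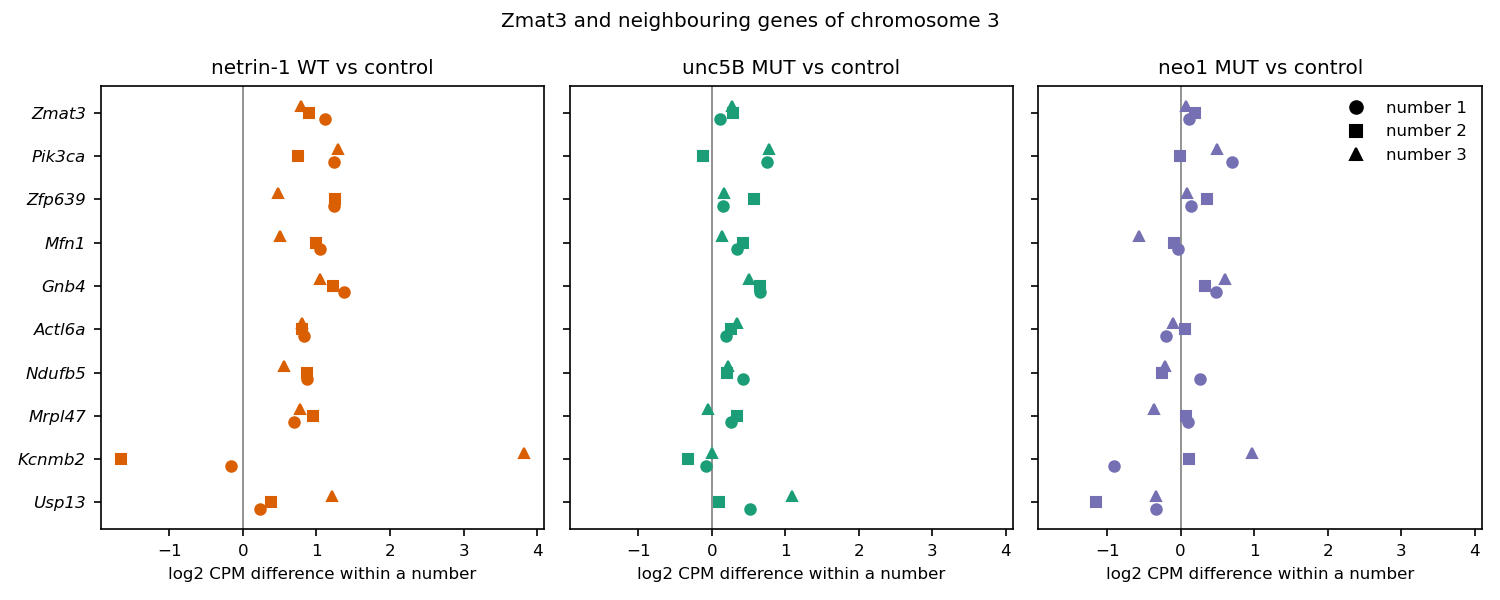
Difference in log2 CPM against control within each number (horizontal axis) for Zmat3 and the 9 neighbouring genes tested (vertical axis), in the libraries of the 3 netrin-1 groups; circles, squares and triangles are numbers 1, 2 and 3. Zmat3 is at 1.11, 0.90 and 0.78 in netrin-1 WT and between 0.07 and 0.28 in both mutants.

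Sesn2 was lower in netrin-1 WT and neo1 MUT, short of the threshold. Sesn2 (ENSMUSG00000028893, chr4:132492032-132510501, minus strand) encodes sestrin 2, a stress-induced inhibitor of the growth kinase complex mTORC1, and is a target of ATF4, the transcription factor of the amino-acid and endoplasmic reticulum stress response, as well as of p53. It had 119.1, 107.1 and 77.3 CPM in control and 66.8, 62.5 and 67.4 in netrin-1 WT. Levels in unc5B MUT were 116.8, 99.0 and 77.6, and in neo1 MUT 62.4, 84.2 and 55.3. All netrin-1 WT libraries lay below all control and all unc5B MUT libraries, and neo1 MUT overlapped with both. The log2 fold change was -0.60 (95% interval -0.95 to -0.25; edgeR adjusted p with the block 0.0716) in netrin-1 WT and -0.58 (-0.93 to -0.23; 0.0636) in neo1 MUT against control. In unc5B MUT it was -0.05 (-0.40 to 0.30).

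The list of ATF4 targets, which counts Atf4 itself among its 12 genes, gave the following values in the same libraries. With the block, 0 of 12 rose and 3 fell in netrin-1 WT against control (median log2 fold change -0.90), 0 and 2 in neo1 MUT (-0.73), and 0 and 0 in unc5B MUT (-0.05). The medians over all genes tested were 0.0066, 0.0154 and 0.0155, and 3.5%, 5.26% and 0.0285% of all genes passed. Psat1, a serine synthesis enzyme, fell by 0.87 ± 0.17, Chac1, which breaks down glutathione, by 1.96 ± 0.45 and the stress-induced regulator Nupr1 by 1.81 ± 0.40 on the log2 scale in netrin-1 WT (edgeR adjusted p with the block 0.0181, 0.0421 and 0.0345; without it 1, 0.902 and 1). In neo1 MUT, Nupr1 fell by 1.58 ± 0.40 and Atf3, a stress-induced transcription factor, by 1.89 ± 0.44 (0.0474 and 0.0336 with the block; 0.889 and 0.249 without). Atf4 itself had a log2 fold change of -1.21 ± 0.39 in netrin-1 WT and -1.46 ± 0.39 in neo1 MUT and did not pass (edgeR adjusted p with the block 0.124 and 0.0557).

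In unc5B MUT against netrin-1 WT, 2 of the 12 rose, Nupr1 by 2.04 ± 0.41 and Psat1 by 0.92 ± 0.17 on the log2 scale, and Sesn2 had 0.55 (95% interval 0.20 to 0.90; edgeR adjusted p with the block 0.109). In neo1 MUT against unc5B MUT, Nupr1 fell by 1.81 ± 0.40 and Phgdh, the first enzyme of serine synthesis, by 0.99 ± 0.20, and Sesn2 had -0.54 (-0.89 to -0.18; 0.0812). The edgeR adjusted p-values with the block were 0.0354 and 0.0245 for Nupr1 and Psat1, then 0.0304 and 0.0219 for Nupr1 and Phgdh. None of these 4 passed without the block. Over all genes, 1.97% passed with the block in the first of these comparisons and 4.87% in the second. No ATF4 target was called in neo1 MUT against netrin-1 WT, where Sesn2 had 0.02 (-0.34 to 0.37). In number 3 against numbers 1 and 2, 8 of the 12 were higher and 2 lower, with a median log2 difference of 0.87. Sesn2 had -0.34 (-0.60 to -0.07) there, and 6695 of all 21053 genes were higher and 6533 lower. The part of ATF4 in the values of Sesn2 was not tested.

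Markers of another cell type moved in these groups too. The summed level of 12 primitive endoderm markers, among them Gata6, Gata4 and Sox17, was 1187 to 2695 CPM in control, 307.9 to 746.9 in netrin-1 WT, 732 to 2058 in unc5B MUT and 298.8 to 599 in neo1 MUT. Of the 12, 11 fell in netrin-1 WT, 0 in unc5B MUT and 12 in neo1 MUT against control in the blocked fit. Of all 21053 genes tested, 370, 1 and 694 fell. None of the 12 was at 0 throughout a group. Col4a1 and Lama1 weighed most in the sum, with control means of 967.8 and 333.5 CPM. Gata6 had 62.8, Gata4 23.6 and Sox17 13.3 in control. The summed level of 9 markers of the 2-cell-like state, in which a few stem cells resemble the early embryo, was 3.46 to 11.8 CPM in control, 39.1 to 47.9 in netrin-1 WT, 5.70 to 15.9 in unc5B MUT and 6.71 to 56.9 in neo1 MUT. The neo1 MUT libraries were split, with 56.9, 55.7 and 6.715 CPM in numbers 1, 2 and 3, against 11.8, 9.71 and 3.46 in control. Of the 7 tested, 5 rose in netrin-1 WT, 0 in unc5B MUT and 4 in neo1 MUT against control with the block. Of all 21053 genes, 367, 5 and 414 rose. Of the 8 pluripotent stem cell markers, 1 rose in netrin-1 WT, 0 in unc5B MUT and 0 in neo1 MUT against control with the block, and 0 fell. The summed level of 10 fibroblast markers was 16.8 to 30.7 CPM and that of 8 trophectoderm markers 46.4 to 114 CPM over the 12 libraries. In bulk RNA, fewer cells of a type and less RNA per cell cannot be told apart. The part of these cells in the values of Sesn2 and Zmat3 was not tested.

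**Figure D4:**
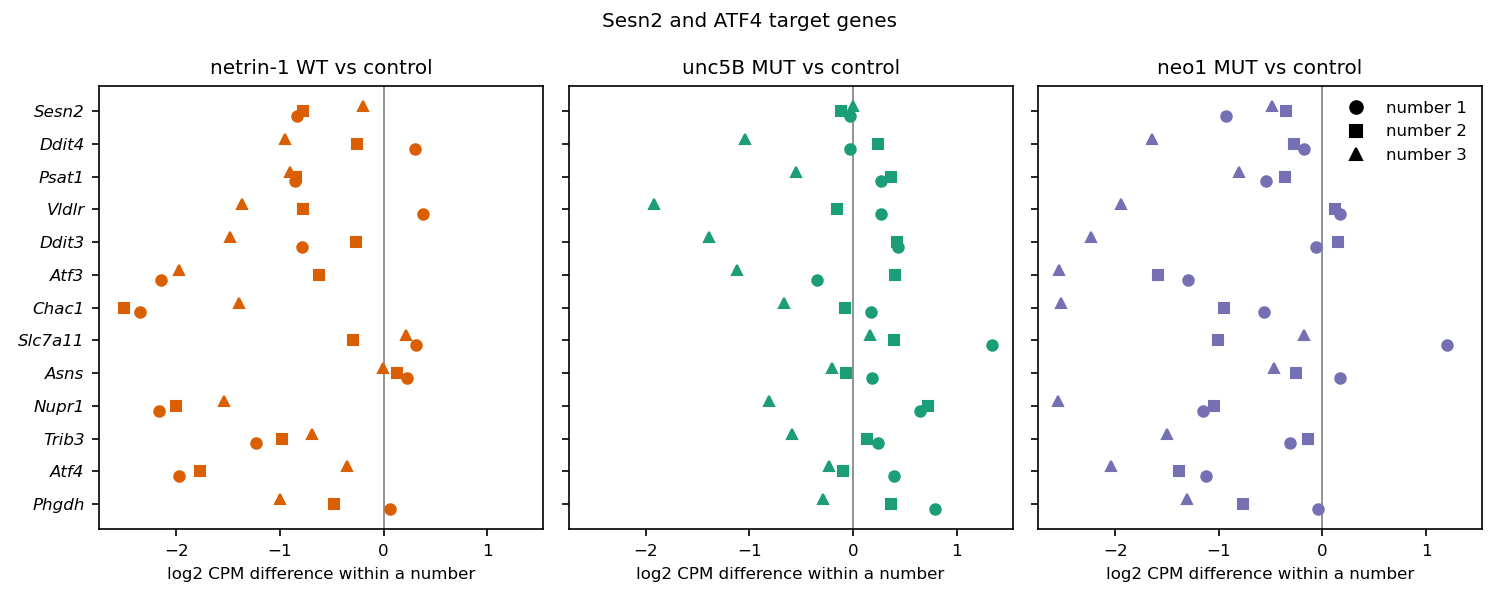
Difference in log2 CPM against control within each number (horizontal axis) for Sesn2 and the 12 genes of the ATF4 list, Atf4 included (vertical axis). Values are from the 3 netrin-1 groups, and circles, squares and triangles are numbers 1, 2 and 3. Sesn2 is below control in all 3 numbers of netrin-1 WT (-0.83, -0.78 and -0.20) and of neo1 MUT (-0.93, -0.35 and -0.48), and near 0 in unc5B MUT.

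The members that act in cell death and survival, Bbc3, Phlda3, Perp and Bax, did not pass in any comparison between groups. Bbc3 (ENSMUSG00000002083, chr7:16308393-16318205, plus strand) encodes PUMA, a BH3-only protein that frees Bax and Bak from their inhibitors. It had 29.1, 34.5 and 60.3 CPM in control and 30.0, 39.9 and 56.7 in netrin-1 WT. The 3 libraries of unc5B MUT had 28.3, 39.5 and 51.3, and neo1 MUT 21.05, 35.8 and 38.8. The groups overlapped, with a log2 fold change of -0.35 (95% interval -0.65 to -0.05; edgeR adjusted p with the block 0.179) in neo1 MUT against control and within 0.05 of 0 in both other groups against control.

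Phlda3 (ENSMUSG00000041801, chr1:135766119-135769136, plus strand) encodes a pleckstrin-homology protein that holds the survival kinase Akt off the membrane. Its level was 49.5, 51.2 and 69.2 CPM in control and 34.9, 40.1 and 64.3 in netrin-1 WT. The unc5B MUT libraries had 45.2, 54.2 and 61.9 and those of neo1 MUT 29.9, 46.3 and 43.5. All neo1 MUT libraries lay below all control libraries, and the other groups overlapped with control. The log2 fold change in neo1 MUT was -0.50 (-0.83 to -0.18; edgeR adjusted p with the block 0.082, without it 0.857).

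Perp (ENSMUSG00000019851, chr10:18845020-18857073, plus strand), a tetraspan membrane protein of p53-dependent apoptosis and cell adhesion, was the lowest member. It had 11.9, 14.99 and 6.6 CPM in control and 5.2, 4.6 and 10.9 in netrin-1 WT. Levels in unc5B MUT were 8.2, 14.1 and 5.7, and in neo1 MUT 11.6, 14.9 and 6.1. Number 3 was the lowest library in 3 groups and the highest in netrin-1 WT. The log2 fold change in netrin-1 WT against control was -1.19 in number 1, -1.69 in number 2 and 0.72 in number 3, and the blocked estimate over the 3 was -0.58 (-1.55 to 0.39; edgeR adjusted p 0.538). Without netrin-1 WT library 3, the estimate was -1.43 and Perp passed (edgeR adjusted p with the block 0.00598).

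Bax (ENSMUSG00000003873, chr7:45461697-45466898, minus strand) encodes the protein that forms pores in the outer mitochondrial membrane. In numbers 1 and 2 its level was 179.5 and 189.1 CPM in control, and with netrin-1 WT 155.7 and 163.0. The same 2 libraries of unc5B MUT had 182.5 and 186.6, and those of neo1 MUT 163.7 and 186.3. In number 3 it was 1136 CPM in control, 1236 in the netrin-1 WT library, 1645 in unc5B MUT and 1768 in neo1 MUT. The difference between the numbers was thus far larger than any difference between groups, whose log2 fold changes against control were -0.11 (-0.41 to 0.19), 0.17 (-0.13 to 0.47) and 0.16 (-0.14 to 0.46).

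Set against numbers 1 and 2 with the group in the model, number 3 differed in 7 of the 10 members, beside 62.8% of all genes tested. Bax, Bbc3, Mdm2 and Phlda3 were higher and Trp53inp1, Zmat3 and Sesn2 lower, so the members did not move one way. Bax had a log2 difference of 3.03 ± 0.10 (edgeR adjusted p = 1.12e-09), or 8.15-fold with an interval of 7.01 to 9.48. Within the groups it was 2.62 in control, 2.96 in netrin-1 WT, 3.16 in unc5B MUT and 3.34 in neo1 MUT. Of the 21053 genes tested, 1189 (5.65%) had a larger positive difference than Bax.

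Trp53inp1 had a log2 difference of -1.0 ± 0.13 in number 3, and its 4 number 3 libraries lay below the other 8, as the 4 of Bax and of Mdm2 lay above. The log2 difference was 0.69 ± 0.10 for Bbc3, 0.53 ± 0.08 for Mdm2, 0.45 ± 0.11 for Phlda3, -0.49 ± 0.08 for Zmat3 and -0.34 ± 0.12 for Sesn2 (edgeR adjusted p 0.0312). Cdkn1a (0.15, 95% interval -0.09 to 0.40), Ccng1 (-0.25, -0.57 to 0.07) and Perp (-0.41, -1.16 to 0.35) did not pass. The call of Sesn2 was lost when the number 3 library of control, unc5B MUT or neo1 MUT was left out (edgeR adjusted p 0.116, 0.12 and 0.0957). Without the number 3 library of netrin-1 WT, Perp passed as lower in number 3, with a log2 difference of -1.02 (edgeR adjusted p 0.000609).

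Bax took 12.2% to 18.4% of the summed CPM of the 10 members in numbers 1 and 2 and 54.1% to 68.6% in number 3. Without Bax, the sum was 747.4 to 1343 CPM in numbers 1 and 2, against 807.7 to 964.7 in number 3. Genes within 10 kb of Bax did not share its size of difference. Ftl1, the ferritin light chain, had 5.98 to 9.34 CPM in numbers 1 and 2, beside 15.9 to 21.4 in number 3, Dhdh 12.2 to 21.1 and 5.76 to 7.32, and Gys1, the muscle glycogen synthase, 49.9 to 93.5 and 63.8 to 86.5. Gm45808, whose gene span overlaps that of Bax over 915 bases, stayed at or under 0.73 CPM. The gene span of Sesn2 is overlapped over 6089 bases by the antisense gene Gm12981, which stayed at or under 0.48 CPM; use of strand in the counting is not stated in the sources used here. The part of the counting or of the libraries' preparation in the difference of number 3 was not tested.

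**Figure D5:**
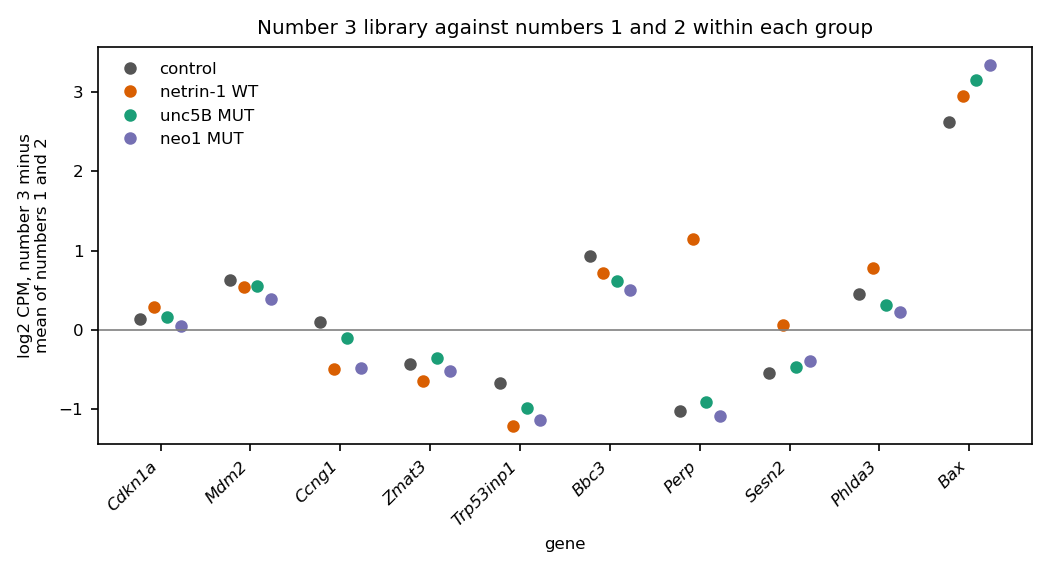
Log2 CPM of the number 3 library minus the mean of numbers 1 and 2 (vertical axis) for each p53 target gene (horizontal axis), 1 point per group. Bax is at 2.62 to 3.34 in all 4 groups, and Trp53inp1 is below 0 in all 4.

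The gene for p53 itself did not pass in any comparison between groups. Trp53 had 275.3, 278.5 and 273.9 CPM in control and 205.6, 156.0 and 306.0 in netrin-1 WT. The 3 libraries of unc5B MUT had 245.8, 237.1 and 460.8, and neo1 MUT 234.3, 240.2 and 451.0. The 3 control libraries were nearly equal, and number 3 was the highest in the other groups. Its log2 fold change in netrin-1 WT against control was -0.40 (95% interval -0.81 to 0.02; edgeR adjusted p with the block 0.30), with 0.09 in unc5B MUT and 0.06 in neo1 MUT. Against netrin-1 WT, Trp53 had 0.48 (0.07 to 0.90; 0.212) in unc5B MUT and 0.46 (0.04 to 0.87; 0.291) in neo1 MUT, with the mutant higher in all 3 numbers of each. Mdm4, the partner of Mdm2 that holds p53 inactive, had 201.3, 223.5 and 166.6 CPM in control and 182.8, 244.0 and 95.7 in netrin-1 WT. The unc5B MUT libraries had 182.9, 204.4 and 96.7 and those of neo1 MUT 165.2, 218.3 and 92.6. The groups overlapped, and no comparison of Mdm4 between groups passed. In number 3 against numbers 1 and 2, Trp53 had a log2 difference of 0.67 ± 0.14 and Mdm4 one of -0.87 ± 0.12 (edgeR adjusted p 0.00148 and 0.000119).

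Of 15 tested genes for p53 and its regulators, 1 passed in any comparison between groups. This gene passed with the block in neo1 MUT against control, netrin-1 WT and unc5B MUT, where 5.26%, 1.99% and 4.87% of all genes passed. Cdkn2a, whose locus encodes the Mdm2 inhibitor p19ARF as well as the kinase inhibitor p16INK4a, had 7.72 to 11.4 CPM in control, 6.79 to 13.5 in netrin-1 WT, 7.25 to 8.64 in unc5B MUT and 15.6 to 19.5 in neo1 MUT. All neo1 MUT libraries lay above the other 9. The log2 fold change of neo1 MUT was 0.93 ± 0.19 against control, 0.97 ± 0.19 against netrin-1 WT and 1.10 ± 0.19 against unc5B MUT (edgeR adjusted p with the block 0.0214, 0.0301 and 0.013; without it 0.405, 0.658 and 0.318). The counts do not separate the 2 products of the locus. In number 3 against numbers 1 and 2, 9 of the 15 were higher and 3 lower, beside 6695 and 6533 of all 21053 genes tested. The median absolute log2 difference was 0.59 over the 15 and 0.73 over all genes. Among the 15, the DNA-damage kinase Atm was at 1.67 and the damage-response protein Trp53bp1 at 1.69 on the log2 scale.

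Of 38 other p53 targets, with the block 0 rose and 1 fell in netrin-1 WT against control, where 3.5% of all genes passed. The counts were 0 and 0 in unc5B MUT against control (0.0285%) and 0 and 2 in neo1 MUT (5.26%). The medians of the 38 were -0.04, -0.04 and -0.06, beside medians over all genes of 0.0066, 0.0155 and 0.0154. Dram1, a lysosomal membrane protein of p53-induced autophagy, had 6.20 to 9.05 CPM in control, 1.01 to 1.53 in netrin-1 WT, 2.93 to 5.31 in unc5B MUT and 0.47 to 2.37 in neo1 MUT. It fell by 2.58 ± 0.34 in netrin-1 WT and fell by 2.54 ± 0.33 on the log2 scale in neo1 MUT (edgeR adjusted p with the block 0.00262 and 0.00276; without it 0.141 and 0.121). In unc5B MUT it was higher than in netrin-1 WT by 1.76 ± 0.33 (0.0283; 0.596 without the block). Rap2b, a Ras-family GTPase, fell by 0.53 ± 0.13 in neo1 MUT against control (0.0455 with the block, 1 without), from 34.9 ± 12.1 to 24.8 ± 10.7 CPM (SD, n = 3). In neo1 MUT against unc5B MUT, Dram1 fell by 1.72 ± 0.33 and Rap2b by 0.65 ± 0.13 (0.018 and 0.023; 0.388 and 1 without the block). In unc5B MUT against control, Dram1 had -0.82 (95% interval -1.5 to -0.14; 0.974 with the block) and did not pass, with all 3 libraries below control. The summed primitive endoderm markers were also below control in every number of the 3 netrin-1 groups, and their part in the values of Dram1 was not tested.

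The BCL2 family, through which Bbc3 and Bax act, had 17 tested members. With the block 1 rose and 1 fell in netrin-1 WT against control, where 3.5% of all genes passed. The counts were 0 and 0 in unc5B MUT against control (0.0285%) and 2 and 0 in neo1 MUT (5.26%). Medians were 0.04, 0.10 and 0.19, beside 0.0066, 0.0155 and 0.0154 over all genes. Bid, a BH3-only protein that activates Bax, had 26.5 to 31.8 CPM in control, 35.04 to 56.8 in netrin-1 WT, 22.7 to 36.2 in unc5B MUT and 41.2 to 60.1 in neo1 MUT. It rose by 0.53 ± 0.13 in netrin-1 WT and by 0.75 ± 0.13 in neo1 MUT on the log2 scale (edgeR adjusted p with the block 0.0447 and 0.00942; without it 0.893 and 0.456). Bik, another BH3-only protein, fell by 1.15 ± 0.24 in netrin-1 WT (0.0281; 0.447 without the block), from 6.15 ± 0.22 to 2.89 ± 0.91 CPM (SD, n = 3). Bmf, of the same class, rose by 0.60 ± 0.14 in neo1 MUT (0.0378; 0.603 without the block). In neo1 MUT against unc5B MUT, Bid rose by 0.84 ± 0.13 and Bmf by 0.65 ± 0.14, and in unc5B MUT against netrin-1 WT Bid fell by 0.62 ± 0.13 and Bik rose by 1.19 ± 0.24, each with the block only.

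Of 15 other CDK inhibitors and G1-S genes, the setting in which p21 acts, 1 rose and 1 fell in netrin-1 WT against control with the block. Over all genes 3.5% passed there. The counts were 0 and 0 in unc5B MUT against control (0.0285% of all genes) and 1 and 0 in neo1 MUT (5.26%). Medians were 0.05, -0.06 and -0.03, beside 0.0066, 0.0155 and 0.0154 over all genes. Cdk6, a kinase of the G1 phase, rose from 16.3 ± 4.91 CPM in control to 33.9 ± 5.90 in netrin-1 WT and 27.5 ± 6.75 in neo1 MUT (SD, n = 3). Its log2 fold changes were 1.08 ± 0.14 and 0.77 ± 0.14 (edgeR adjusted p with the block 0.00235 and 0.0125; without it 0.409 and 0.605). Ccne1, cyclin E1, fell by 0.56 ± 0.14 in netrin-1 WT (0.0498; 0.787 without the block). Cdkn1b, which encodes the inhibitor p27, fell by 0.71 ± 0.14 in unc5B MUT against netrin-1 WT (0.0357; 1 without the block).

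The authors' deposited table, made with a model that is not stated in the sources used here, called 2 of the 10 members in netrin-1 WT against control (4.42% of its 20347 genes), 0 in unc5B MUT against control (0.0491%) and 1 in neo1 MUT against control (5.52%). It called 2 in unc5B MUT against netrin-1 WT (3.07%), 1 in neo1 MUT against netrin-1 WT (2.19%) and 1 in neo1 MUT against unc5B MUT (6.36%). In netrin-1 WT against control, the authors' deposited table gave Zmat3 a log2 fold change of 0.95 (adjusted p = 0.00882) and Sesn2 one of -0.64 (0.0302). In neo1 MUT against control, the authors' deposited table called Sesn2 at -0.60 (adjusted p = 0.035). Sesn2 thus lay under the threshold in the authors' deposited table and over it in the blocked edgeR fit, with effects of nearly the same size.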

How the data were processed

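Total RNA was extracted on columns and sequenced with standard Illumina libraries, per the labels' protocols. The deposited raw table holds estimated counts, not whole numbers, of 52661 Ensembl genes in 12 libraries. The submitters' processing notes name STAR 2.5.2b, FastQC 0.11.5, DESeq2, Bowtie2, Bowtie and R 3.3.2 without their roles. The counting program and its use of strand are not stated in the sources used here, and reads of overlapping or near-identical genes may have been divided. The authors' deposited table of comparisons gives log2 fold changes, p-values and adjusted p-values for 20347 genes, with a signed fold score and a filter column that were not used. The deposited normalized table, on a log2 scale, was not used.

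The 10 members and all gene lists were chosen with earlier results of these data known. Estimated counts were rounded and fitted in edgeR 4.0.16 (limma 3.58.1, R 4.3.3) over all 12 libraries with TMM normalization and filterByExpr, tested by quasi-likelihood and adjusted by Benjamini-Hochberg over 21053 genes and a threshold of 0.05. The first fit had the group as its only term and the second added the replicate number, read from the titles, as a block. Deviations of same-numbered libraries from their group means correlated at 0.58 to 0.88 in all 18 cases, over the 0.1 required to treat numbers as pairs. Numbers 1 and 2 also correlated with each other (0.49 to 0.76), over the same 0.1. The check therefore sets number 3 apart but cannot show that numbers 1 and 2 are separate pairs. The meaning of a number is not in the labels. Number 3 was compared with the mean of numbers 1 and 2 in the blocked fit. Within-number differences are of log2 CPM with a prior count of 2 and have no test. An exact permutation test of 3 against 3 libraries cannot go below 0.1 and was not run. No 2 libraries of a group agreed within sampling noise. Gene models are GENCODE M21 (GRCm38), which held 52566 of the IDs; promoters are from RefSeq. The text names all members, Trp53, Mdm4 and up to 4 called genes of each other list and comparison, by the largest absolute log2 fold change; genes near Bax and markers were added. The scripts were tested on simulated data. Alternatives were RLE size factors, 2 other low-count filters, limma-voom, DESeq2 1.42.0, a fit of the 2 compared groups alone, each library left out, and no number 3 libraries.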

Additional observations from a re-analysis of the deposited data

Results flagged for a closer look

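Perp moved one way in numbers 1 and 2 and the other way in number 3, by at least 0.5 on the log2 scale in each, in all 3 comparisons that involve netrin-1 WT. In netrin-1 WT against control the log2 CPM differences were -1.19, -1.69 and 0.72 in numbers 1, 2 and 3. In unc5B MUT against netrin-1 WT they were 0.65, 1.60 and -0.93, and in neo1 MUT against netrin-1 WT 1.15, 1.68 and -0.82. The 3 comparisons share the netrin-1 WT libraries, each number has 1 library per group, and the difference between the numbers was not tested.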

How the results depend on the processing

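With the replicate block, 1 member (Zmat3) was called in netrin-1 WT against control, in unc5B MUT against netrin-1 WT and in neo1 MUT against netrin-1 WT, where the fit without it called 0. DESeq2 with the replicate block called 2 in netrin-1 WT against control, 2 in neo1 MUT against control, 2 in unc5B MUT against netrin-1 WT, 1 in neo1 MUT against netrin-1 WT and 1 in neo1 MUT against unc5B MUT, with Sesn2 (adjusted p 0.0128, 0.015, 0.0342 and 0.0362) and Phlda3 (0.0227 in neo1 MUT against control) beside Zmat3; of all 21053 genes it called 1750, 2148, 1486, 1136 and 2180. Without the number 3 libraries, 3 passed in netrin-1 WT against control in the fit without the block (Perp, Zmat3 and Sesn2), beside 895 of all 21223 genes. The same with the block, added after the data were seen, gave 3 in netrin-1 WT against control, 1 in neo1 MUT against control, 3 in unc5B MUT against netrin-1 WT and 2 in neo1 MUT against netrin-1 WT, beside 3450, 2233, 2845 and 627 of all 21223 genes. Leaving out each library with the block gave 1 to 3 calls in netrin-1 WT against control, 0 to 3 in unc5B MUT and 1 to 2 in neo1 MUT against netrin-1 WT, and 0 in the other 3 comparisons; the highest counts came without netrin-1 WT library 3, where 1861, 1830 and 379 of all 22067 genes passed. Without the block it gave 0 in all 6. The cause was not tested. In number 3 against numbers 1 and 2, 6 to 8 members passed when a number 3 library was left out, against 7. Of 1320 fold changes of single members in the 6 comparisons under other settings, 1135 kept their direction and side of the threshold, 42 came to pass, 143 changed sign without a call and 0 reversed a call. Depth was lowest for Perp, at 105.3 to 648.7 estimated counts per library.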
